A study of Mus musculus with 10 samples.

Results

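Chromatin accessibility was described around 10 mouse genes for matrix proteins of the fibroblast lineage, *Postn*, *Fn1*, *Tnc*, *Vcan*, *Fbln2*, *Dcn*, *Lum*, *Sparc*, *Thbs1* and *Eln*. Members were the ATAC-seq summits inside or within 25 kb of these genes on mm10, and a promoter summit was one within 1 kb of the gene start. Summits of all libraries were reduced to elements that reach 250 bp to either side of a summit, of which 172 of 184764 lay in the windows of the 10 genes. Of the 172 elements, 13 were at the promoters, 64 inside the gene bodies, 44 upstream and 50 downstream, and 1 in the *Eln* window stood at the start of another gene and was set apart.

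The study sorted cells from hearts of Rosa26tdTomato;Wt1CreERT2/+ embryos on the C57BL/6J strain, after tamoxifen at E9.5 had marked *Wt1*-expressing cells and their descendants with tdTomato. All groups carried a Rosa26tdTomato reporter and the same Cre allele and had the same tamoxifen treatment. The paper lists alternative tdTomato alleles, and dams with the reporter or wild-type. Those behind each library are not given in the sources used here. There were 3 libraries of epicardium at E11.5 (6 hearts pooled in each), 3 of epicardium at E17.5 (4 hearts pooled in each), both sorted as CD31-tdTomato+PDPN+, and 3 of epicardium-derived cells (EPDCs), sorted as CD31-tdTomato+PDPN- at E12.5 (sample 1) and E13.5 (samples 1 and 2), the last pooled from its 2 technical replicates. Hearts of littermates were pooled at E13.5 as well, and the pool at E12.5 is not given in the sources used here. The label depends on *Wt1* activity at the time of tamoxifen, so a descendant of an unmarked cell is not in any group.

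ATAC-seq maps open chromatin through the Tn5 transposase, which cuts accessible DNA and adds sequencing adapters to it. A summit is the highest point of such a pile of fragments. The epicardium is the outer cell layer of the heart, and part of it undergoes an epithelial-to-mesenchymal transition that yields fibroblasts and mural cells of the vessels. Fibroblasts build the extracellular matrix, and matricellular proteins such as periostin, tenascin-C, thrombospondin-1 and SPARC act in that matrix mainly by changing how cells adhere and signal. Promoters and distal enhancers of active genes are usually accessible, yet an open element does not show that a gene is transcribed.

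The libraries listed between 94909 and 142743 summits, and the background solved from the lists was 2.07 to 10.9 fragments per position. E13.5 sample 2 was the deepest library. The strength of an element in a library is given as a rank percentile, which is the position of its strongest summit among all summits of that library by −log10 p, with 100 the strongest and 0 where no summit was called. A 0 is an absence of a called summit and not a measurement of closed chromatin. A pair of groups was called different where none of their libraries overlapped. For 3 against 3 libraries this is the smallest p of a two-sided exact permutation test, 0.1, and for 3 EPDC libraries against 6 epicardial libraries it is 0.0238. Adjusted over all elements by the Benjamini-Hochberg method, the smallest exact permutation p was 0.261 for stage and 0.136 for EPDCs, so calls are described against the share of all elements called and none passed an adjusted threshold of 0.05. Distal elements named for a difference were picked as the largest called for their gene, so their differences are descriptions and carry no p. The 3 EPDC lists also differed from the epicardial lists in their making, since they kept 252 to 268 summits outside chromosomes 1 to 19, X and Y, 25 to 47 of them mitochondrial, where the epicardial lists had 0. That difference, and the difference in age, cannot be told apart from EPDC identity.

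The promoters of marker genes were read in the same way. All 9 libraries had a promoter summit of *Wt1*, between the 90.4 and 97.5 percentiles. *Upk3b*, a surface marker of mesothelium, lay at 97.0 to 99.2 in epicardium and at 73.6, 22.8 and 46.1 in EPDCs. Summed over 12 epicardial markers, the percentiles were 840.3 to 892.4 at E11.5, 999.3 to 1064.9 at E17.5 and 673.2 to 761.9 in EPDCs. At E17.5, 5 of the 12 were higher than at E11.5, and 5 were lower, *Wt1*, *Upk3b*, *Upk1b*, *Pdpn* and *Bnc1*. Of the higher ones, *Msln* and *Krt19* had no summit at the gene start in the E11.5 libraries, but near any transcript start *Msln* was at 56.4, 64.7 and 49.7 there, and *Krt19* was at 90.3, 93.5 and 93.2, which overlapped its E17.5 values. By interval overlap, *Krt8*, another of the higher ones, was called lower at E17.5 and its EPDC call was lost. By fold enrichment the EPDC calls of *Upk1b* and *Aldh1a2* and the stage call of *Aldh1a2* were lost, and on the log2 scale the stage call of *Upk3b* and the EPDC call of *Aldh1a2*. In EPDCs, 0 of the 12 were higher than in epicardium and 4 were lower. By fold enrichment *Pdpn* and *Bnc1* were called higher in EPDCs, as were 8.75% of all promoters. Over all promoters, 7.70% were higher and 17.3% lower at E17.5, and 4.80% higher and 6.68% lower in EPDCs. Summed over 9 mesenchymal markers the percentiles were 587.7 to 606.8, 612.6 to 653.0 and 649.0 to 668.8, in the same order. *Twist1* was called higher in EPDCs, and *Col1a2* and *Col3a1* higher at E17.5, the latter call lost by fold enrichment. *Dpt* was at 0 in all 9 libraries. Near any transcript start, *Pdgfra* was at 63.4 to 77.0 in epicardium and at 55.5 to 64.7 in EPDCs, without an EPDC call. Of 7 endothelial markers, *Pecam1*, *Cdh5*, *Tie1* and *Emcn* were at 0 in all 9 libraries at the gene start, while *Kdr* (88.1 to 93.2, called higher in EPDCs), *Tek* (78.9 to 85.8) and *Erg* (75 to 92.1, called lower at E17.5) were open in all 9. Near any transcript start, *Pecam1* had summits in both E13.5 EPDC libraries, at 25.5 and 36.7. The list's sum was 264.6 to 267.5, 247.8 to 254.5 and 259.0 to 264.5. The sum over 7 cardiomyocyte markers was 214.9 to 281.9, 172.4 to 206.7 and 168.0 to 174.7, with *Myh6* at 0 throughout. *Tnnt2* (59.9 to 89.7) and *Actn2* (77.8 to 94.5) were open in all 9 libraries and called lower at E17.5, and *Myh7* was at 22.7 to 59.8 in epicardium, called higher at E17.5, and at 0 in EPDCs. Near any transcript start, *Tnni3* was open in all 9 libraries, at 44.5 to 65.4 in epicardium, called higher at E17.5, and at 28.7 to 43.6 in EPDCs, called lower. The sum over 8 blood and leukocyte markers was 139.8 to 144.8, 138.8 to 158.3 and 91.6 to 144.2, with *Ptprc*, *Csf1r*, *Itgam*, *Spi1* and *Gata1* at 0 throughout at the gene start. Near any transcript start, *Csf1r* was at 24.8 in E12.5 sample 1. *Lyz2* was called higher in EPDCs, at 31.1, 53.5 and 64.9 against 0.0 to 19.2 in epicardium, and *Cd68* lower, at 14.6, 22.2 and 0.0 against 52.2 to 79.9. The part of any of these cells in the results was not tested. In such sorted pools, fewer cells of a type with an open element and a less open element in each cell cannot be told apart.

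Sequences of the elements on which the results turn are shown on mm10 (GRCm38.p6, RefSeq assembly), each on the strand of its gene and 5′ to 3′. Distal elements are named by the distance of their summit from the gene start, positive in the direction of transcription. The first is the 200 bases before the *Postn* start, chr3:54360909-54361108, where no E11.5 library and every EPDC library had a summit. The distal windows are 201 bases around the summit. Those of *Postn* +50.2 kb (chr3:54411170-54411370), *Lum* +24.7 kb (chr10:97589703-97589903) and *Fn1* −10.3 kb (chr1:71663437-71663637) were highest in EPDCs. *Tnc* +32.6 kb (chr4:64014339-64014539) and *Eln* −14.5 kb (chr5:134761736-134761936) were high at E17.5, and *Fbln2* −11.5 kb (chr6:91200854-91201054) had no summit there. *Tnc* +79.5 kb (chr4:63967384-63967584) and *Eln* −9.1 kb (chr5:134756323-134756523) were high in epicardium. Capitals mark matches, on either strand, to the 7 motifs listed with their shares further on, and in the *Postn* promoter the match to TATAAA.
Postn promoter: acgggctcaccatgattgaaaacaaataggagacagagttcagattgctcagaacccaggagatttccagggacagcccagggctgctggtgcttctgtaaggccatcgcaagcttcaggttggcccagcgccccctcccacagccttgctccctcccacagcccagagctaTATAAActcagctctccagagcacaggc
Postn +50.2 kb: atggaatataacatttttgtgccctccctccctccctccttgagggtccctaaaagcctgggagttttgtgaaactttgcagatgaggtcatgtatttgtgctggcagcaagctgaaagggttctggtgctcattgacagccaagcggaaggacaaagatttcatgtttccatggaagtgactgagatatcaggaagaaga
Lum +24.7 kb: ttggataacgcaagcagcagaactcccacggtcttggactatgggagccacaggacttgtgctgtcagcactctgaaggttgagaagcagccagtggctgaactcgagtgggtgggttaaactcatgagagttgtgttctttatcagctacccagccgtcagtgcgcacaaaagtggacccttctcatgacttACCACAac
Fn1 −10.3 kb: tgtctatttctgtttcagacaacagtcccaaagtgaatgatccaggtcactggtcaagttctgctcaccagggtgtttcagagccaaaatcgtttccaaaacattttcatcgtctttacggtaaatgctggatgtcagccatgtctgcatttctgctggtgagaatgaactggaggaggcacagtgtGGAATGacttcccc
Tnc +32.6 kb: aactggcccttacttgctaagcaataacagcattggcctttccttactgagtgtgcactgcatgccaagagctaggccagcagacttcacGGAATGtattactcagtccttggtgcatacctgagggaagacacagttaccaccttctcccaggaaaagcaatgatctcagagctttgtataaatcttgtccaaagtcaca
Eln −14.5 kb: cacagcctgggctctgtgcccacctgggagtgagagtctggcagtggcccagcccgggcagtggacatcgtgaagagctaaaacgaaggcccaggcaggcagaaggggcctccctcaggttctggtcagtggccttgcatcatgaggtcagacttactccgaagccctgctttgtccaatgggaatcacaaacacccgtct
Fbln2 −11.5 kb: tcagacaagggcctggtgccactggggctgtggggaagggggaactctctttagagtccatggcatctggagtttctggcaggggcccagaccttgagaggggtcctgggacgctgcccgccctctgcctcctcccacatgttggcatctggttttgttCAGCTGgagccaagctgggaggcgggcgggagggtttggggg
Tnc +79.5 kb: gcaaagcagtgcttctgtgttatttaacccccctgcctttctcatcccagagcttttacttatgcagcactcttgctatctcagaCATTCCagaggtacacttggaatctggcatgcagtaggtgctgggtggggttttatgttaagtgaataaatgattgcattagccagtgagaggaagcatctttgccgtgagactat
Eln −9.1 kb: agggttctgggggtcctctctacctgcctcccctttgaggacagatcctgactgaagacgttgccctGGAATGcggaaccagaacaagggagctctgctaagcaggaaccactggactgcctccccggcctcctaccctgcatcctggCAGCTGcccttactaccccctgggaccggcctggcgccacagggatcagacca

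The TATAAA word, whose textbook place is shortly before a start site, was looked for after the *Postn* sequence had been seen. It was present in the 200 bases before the start of *Postn* and of *Tnc* and not in those of the other 8 genes, while 9.29% of 21933 protein-coding starts held it on either strand. A match to these letters describes the sequence only.

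Between the stages of epicardium, 2 of the 10 promoters were higher and 5 were lower at E17.5 than at E11.5, by the rule of no overlap. Over the promoters of all 21938 protein-coding genes, 7.70% were higher and 17.3% were lower. The shares and medians over all promoters include promoters without a summit in any library, which could not be called. All 10 member promoters had a summit in several libraries, so members and background were not alike in this. The balance over all promoters turned with the ranking, to 16% higher and 10.3% lower among equal numbers of top summits and to 22.6% and 8.29% on the log2 scale, where 3 and 2 of the 10 were higher and 5 and 4 were lower. Against epicardium of both stages, 2 promoters were higher and 1 was lower in EPDCs, where 4.80% and 6.68% of all promoters were. The median difference over the 10 promoters was −2.54 percentile points at E17.5 against E11.5 and 6.31 in EPDCs against epicardium, and over all promoters it was 0.0 for both comparisons. The promoters of *Fn1*, *Tnc*, *Dcn*, *Thbs1* and *Vcan* lay between 79.4 and 97.9 in every library. *Postn* and *Sparc* each had no promoter summit in 1 of the 3 groups. Leaving out E12.5 sample 1, 5 promoters were higher in EPDCs, with 7.60% of all promoters.

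**Figure D1:**
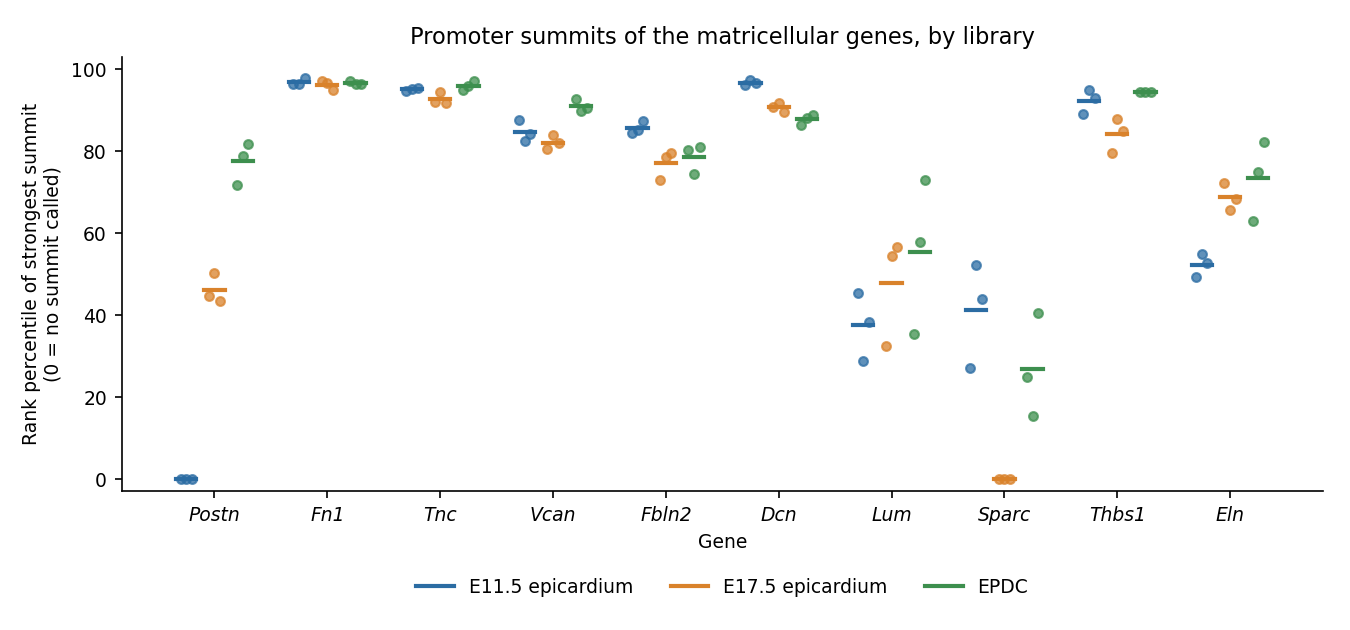
Rank percentile of the strongest summit within 1 kb of the start of each of the 10 genes (y axis, 0 where no summit was called) in 3 libraries each of E11.5 epicardium, E17.5 epicardium and EPDCs, with points for libraries and a bar for the group mean. *Postn* rises from 0 in the E11.5 libraries to 71.7 to 81.8 in EPDCs, and *Sparc* is at 0 in the E17.5 libraries.

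*Postn* encodes periostin, a secreted matricellular protein of activated fibroblasts and cushion mesenchyme, which binds integrins and collagen. Its promoter (start at chr3:54361109, + strand) had a percentile of 0 in the 3 E11.5 libraries, of 44.6, 50.2 and 43.5 in the E17.5 libraries, and of 71.7, 78.9 and 81.8 in the EPDC libraries. The 3 groups did not overlap, with E11.5 lowest and EPDCs highest. The mean was 46.1 ± 3.64 (SD, n = 3) at E17.5 and 77.5 ± 5.2 (SD, n = 3) in EPDCs. The difference of EPDCs from all 6 epicardial libraries was 54.4 points (exact permutation p = 0.0238), and that between the stages was 46.1 points (exact permutation p = 0.1). The E17.5 summits rested on 38, 60 and 50 fragments, and those of the first and second EPDC libraries on 99 and 171. Both calls were kept under each of the 6 other rankings and windows tried.

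The *Postn* element at +50.2 kb lay in intergenic sequence downstream of the gene. It was at 56.1, 61.5 and 60.2 in the E11.5 libraries, at 35.4, 15.0 and 21.9 at E17.5, and at 83.6, 91.2 and 89.8 in EPDCs. It was thus lowest at E17.5, whereas the promoter was lowest at E11.5, and both were highest in EPDCs. The EPDC difference was 46.5 points and the stage difference −35.1 points. The E17.5 summits there held 19, 18 and 20 fragments, near the 9 to 12 fragments of the weakest summits in those lists. The strongest distal element, 2.42 kb upstream, was open in all libraries, at 92.5, 94.0 and 96.2 at E11.5, 86.7, 87.1 and 84.5 at E17.5, and 90.3, 91.7 and 92.8 in EPDCs. Of the 9 *Postn* elements, 3 (33.3%) were higher and 0 lower in EPDCs, where 9.36% and 8.09% of all elements were. *Postn* had 3, 3 and 3 summits in the E11.5 libraries, 3, 4 and 3 at E17.5, and 6, 6 and 9 in EPDCs, and its share of all summits did not overlap between EPDCs (0.61 ± 0.0651 per 10000, SD, n = 3) and epicardium (0.265 ± 0.0459, SD, n = 6), as for the 5.32% of all gene windows that were higher in EPDCs. Among equal numbers of top summits it had 3, 6 and 5 summits in EPDCs against 2 to 3 in epicardium, and the groups overlapped.

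*Tnc* encodes tenascin-C, a large hexameric glycoprotein that loosens cell adhesion in developing and injured tissue. Its promoter (start at chr4:64047015, − strand) was open in all groups, at 94.6, 95.2 and 95.4 at E11.5, 92.0, 94.3 and 91.7 at E17.5, and 94.8, 95.9 and 97.1 in EPDCs. It was called lower at E17.5, with a difference of −2.41 points on the percentile scale. It was not called with scores on a log2 scale, where the difference was 0.0198, nor with summits ranked by fold enrichment. Within the gene, the intronic element at +32.6 kb had no summit in the E11.5 and EPDC libraries and was at 66.1, 79.9 and 79.6 at E17.5, on 48, 107 and 96 fragments. With a difference of 75.2 points, it had the largest stage difference of any named element.

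The intronic *Tnc* element at +79.5 kb went with the epicardial sort. Its E11.5 values were 53.4, 65.4 and 56.3, its E17.5 values 65.2, 71.6 and 62.3, and no EPDC library had a summit in it. The EPDC difference was −62.4 points. The strongest distal element, at −18.5 kb, was at 90.7, 92.8 and 92.6 at E11.5, at 79.3, 84.9 and 75.1 at E17.5, and at 88.6, 89.6 and 90.5 in EPDCs, so that E17.5 was lowest. Of the 20 *Tnc* elements, 3 (15.0%) were higher and 5 (25%) lower at E17.5, near the 11.0% and 27.4% of all elements, and 1 (5.0%) was higher and 3 (15.0%) lower in EPDCs, where 9.36% and 8.09% of all elements were. The share of all summits that lay in the *Tnc* window was 1.13 ± 0.114 per 10000 in epicardium (SD, n = 6) and 0.907 ± 0.0238 in EPDCs (SD, n = 3), without overlap (exact permutation p = 0.0238), as for the 7.37% of all gene windows that were lower in EPDCs.

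*Thbs1* encodes thrombospondin-1, a trimeric matricellular protein that restrains vessel growth and can activate latent TGF-β. The promoter (start at chr2:118111876, + strand) was at 89.0, 94.8 and 93.0 at E11.5, 79.4, 87.7 and 85.0 at E17.5, and 94.4, 94.4 and 94.5 in EPDCs. It was lower at E17.5, with a difference of −8.24 points (exact permutation p = 0.1). Immediately upstream, the element at −1.4 kb had the opposite stage pattern, with E11.5 values of 75.7, 70.6 and 65.4 and E17.5 values of 94.6, 95.8 and 94.5, and in EPDCs it was at 64.4 in E12.5 sample 1 and had no summit in the other two libraries. When the strongest overlapping interval was read in place of the summit, the promoter and the −1.4 kb element had the same value in each of the 9 libraries, with a stage difference of 2.68 and an EPDC difference of 0.827 and neither called. The EPDC call of the −1.4 kb element was also lost among equal numbers of top summits, by fold enrichment and on the log2 scale. The downstream element at +15.7 kb had no summit at E11.5 and was at 57.4, 57.2 and 28.2 at E17.5, with 0.0, 8.2 and 26.8 in EPDCs. The strongest distal element, at +38.2 kb in an intron of *Fsip1*, was at 80.9 to 89.7 in every library and was not called in either comparison.

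The *Thbs1* window held 8, 9 and 6 summits at E11.5, 15, 19 and 13 at E17.5, and 12, 11 and 14 in EPDCs. Its share of all summits was 0.579 ± 0.126 per 10000 at E11.5 and 1.43 ± 0.192 at E17.5 (SD, n = 3 each), and the stages did not overlap, as for the 24.7% of all gene windows that were higher at E17.5. Among equal numbers of top summits the window held 7, 6 and 5 in the E11.5 libraries against 15, 10 and 11 in the E17.5 libraries, still without overlap, as for 14.7% of all windows.

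*Sparc* encodes osteonectin, a collagen-binding glycoprotein that acts on matrix assembly. Its outermost annotated start (chr11:55423183, − strand) had only a weak summit, at 27.2, 52.2 and 44.0 at E11.5, at 0 in the 3 E17.5 libraries, and at 25, 15.3 and 40.4 in EPDCs. The E17.5 libraries were below the E11.5 libraries, with a difference of −41.1 points. The annotation gives the gene 8 transcript starts, and with the strongest summit near any of them the values were 94.2, 94.9 and 95.5 at E11.5, 86.8, 89.4 and 87.2 at E17.5, and 91.7, 86.9 and 91.3 in EPDCs, again lower at E17.5 than at E11.5. The strongest distal element, 5.2 kb upstream, was between 98.0 and 99.1 in all 9 libraries, with means of 98.7 in each group, and was not called in either comparison.

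The intronic *Sparc* element at +16.9 kb was graded like the *Postn* promoter. It had no summit at E11.5, was at 42.6, 18.7 and 43.7 at E17.5, and was at 68.0, 79.1 and 78.5 in EPDCs. Its EPDC difference was 57.7 points, while its stage difference of 35.0 points was not called among equal numbers of top summits. The downstream element at +42.0 kb was at 46.4, 48.4 and 51.3 at E11.5 and 49.4, 54.2 and 48.6 in EPDCs, with no summit at E17.5. Of the 22 *Sparc* elements, 3 (13.6%) were higher and 6 (27.3%) lower at E17.5, near the 11.0% and 27.4% of all elements, and 3 (13.6%) were higher and 1 (4.55%) lower in EPDCs, against 9.36% and 8.09%.

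*Fn1* encodes fibronectin, the glycoprotein of the provisional matrix on which other fibres are laid down. Its promoter (start at chr1:71653200, − strand) was among the strongest summits of every library, at 96.4, 96.3 and 97.9 at E11.5, 97.0, 96.5 and 95.0 at E17.5, and 97.0, 96.3 and 96.3 in EPDCs. The groups overlapped, and the EPDC mean differed from the epicardial mean by 0.0425 points. Of the 20 *Fn1* elements, 1 (5.0%) was higher and 3 (15.0%) were lower at E17.5, against 11.0% and 27.4% of all elements, and 1 (5.0%) was higher and 1 (5.0%) lower in EPDCs, against 9.36% and 8.09%. The element at −10.3 kb had no summit at E11.5, was at 0.0, 9.8 and 8.4 at E17.5, and was at 44.4, 70.4 and 69.0 in EPDCs, a difference of 58.2 points. The element at +27.0 kb, over a coding exon, was highest at E11.5 and lowest in EPDCs, at 55.5, 70.2 and 70.6 at E11.5, 23.8, 43.3 and 22.9 at E17.5, and 0.0, 0.0 and 12.4 in EPDCs. The intronic element at +22.0 kb had no summit at E11.5 and was at 42.0, 62.3 and 55.6 at E17.5, with 0.0, 0.0 and 40.6 in EPDCs. There were 7 of the 20 elements with a summit in a single library, a larger share than the 16.6% of all elements.

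*Vcan* encodes versican, the hyaluronan-binding proteoglycan of the cardiac jelly and of migrating mesenchyme. The promoter (start at chr13:89742509, − strand) was at 87.6, 82.5 and 84.1 at E11.5, 80.4, 83.8 and 82.0 at E17.5, and 92.8, 89.8 and 90.6 in EPDCs. All EPDC libraries were above all epicardial libraries, by 7.64 points on average (exact permutation p = 0.0238). The stages overlapped. With the strongest summit near the start of any transcript, E11.5 was at 91.1, 91.8 and 91.1, E17.5 at 80.4, 86.3 and 82.0, and the EPDC values were the same as before. EPDCs then overlapped epicardium, and E17.5 was lower than E11.5. The strongest distal element, in an intron at +3.0 kb, was at 91.1, 91.8 and 91.1 at E11.5, 79.5, 84.8 and 81.1 at E17.5, and 86.7, 87.8 and 84.8 in EPDCs. The element at −5.6 kb was at 50.9, 72.3 and 58.0 at E11.5, had no summit at E17.5, and was at 0.0, 36.6 and 34.9 in EPDCs. The intronic element at +32.4 kb was at 52.0, 51.7 and 53.3 at E11.5, 69.5, 70.6 and 67.4 at E17.5, and 0.0, 22.2 and 21.1 in EPDCs.

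In the same gene, the intronic element at +33.8 kb was highest in EPDCs. This element and the one at +7.2 kb were picked out after their values had been seen. The first was at 0.0, 31.2 and 36.0 at E11.5, 34.8, 41.4 and 43.7 at E17.5, and 58.9, 84.7 and 88.1 in EPDCs. The second, at +7.2 kb, had no summit in any epicardial library and was at 43.9, 40.3 and 54.0 in EPDCs. Of the 13 *Vcan* elements, 3 (23.1%) were higher and 1 (7.69%) was lower in EPDCs, against 9.36% and 8.09% of all elements, and 1 (7.69%) was higher and 3 (23.1%) lower at E17.5, against 11.0% and 27.4%.

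*Dcn* and *Lum* encode decorin and lumican, small leucine-rich proteoglycans that bind collagen and set the spacing of its fibrils, and they are neighbours on chromosome 10. The *Dcn* promoter (start at chr10:97479609, + strand) was at 96.1, 97.4 and 96.6 at E11.5, 90.8, 91.7 and 89.6 at E17.5, and 86.3, 88.1 and 88.9 in EPDCs. It was the only one of the 10 promoters called lower in EPDCs, with a difference of −5.95 points (exact permutation p = 0.0238), and with summits ranked by fold enrichment the groups overlapped. It was also lower at E17.5, with a difference of −5.98 points. The intronic element at +37.1 kb, the strongest distal one, was at 77.8 to 85.6 in epicardium and at 75.5, 71.0 and 79.2 in EPDCs, and was not called in either comparison. The element at +56.3 kb was at 22.3, 8.8 and 0.0 at E11.5, 53.8, 61.9 and 62.7 at E17.5, and 0.0, 0.0 and 22.3 in EPDCs. The element at +60.8 kb lies in both the *Dcn* and the *Lum* window. It had no summit in any epicardial library and was at 28.8, 55.4 and 57.5 in EPDCs.

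The *Lum* promoter (start at chr10:97565128, + strand) was weak and variable, at 45.3, 28.8 and 38.4 at E11.5, 32.4, 54.4 and 56.5 at E17.5, and 35.4, 57.8 and 72.9 in EPDCs, and neither comparison was called. Among equal numbers of top summits the *Lum* promoter was called higher at E17.5, by 26.6 points. Its element at +24.7 kb, downstream of the gene, was at 81.1, 88.4 and 89.9 at E11.5, 58.1, 53.6 and 43.7 at E17.5, and 92.3, 93.9 and 90.9 in EPDCs. This was the order of the *Postn* +50.2 kb element, with E17.5 lowest and EPDCs highest. The differences were 23.2 points for EPDCs and −34.7 points for stage. Ranked by fold enrichment, EPDCs overlapped epicardium there.

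*Eln* encodes elastin, the core of elastic fibres, and *Fbln2* encodes fibulin-2, which binds elastic fibres and basement membranes. Both had more elements called higher at E17.5 than the other members. The *Eln* promoter (start at chr5:134747323, − strand) was at 49.2, 54.9 and 52.8 at E11.5, 72.1, 65.6 and 68.4 at E17.5, and 63.0, 74.9 and 82.2 in EPDCs, and was called higher at E17.5, by 16.4 points. Read by interval overlap the difference was −7.12 and the promoter was called lower at E17.5, and by fold enrichment the stages overlapped. The element at −14.5 kb was at 9.8, 0.0 and 0.0 at E11.5, at 55.7, 73.2 and 65.9 at E17.5, and without a summit in EPDCs. The element at −9.1 kb was at 55.1, 57.9 and 48.4 at E11.5, at 68.6, 65.6 and 61.2 at E17.5, and at 0.0, 0.0 and 16.9 in EPDCs. At +66.8 kb, in an intron of *Limk1*, the strongest distal element was at 92.4 to 97.6 in epicardium and at 92.1, 85.0 and 85.8 in EPDCs, a call that was lost among equal numbers of top summits, by fold enrichment and on the log2 scale.

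Of the 21 *Eln* elements, 9 (42.9%) were higher and 4 (19%) lower at E17.5, against 11.0% and 27.4% of all elements. The *Eln* window held 15, 13 and 15 summits at E11.5, 19, 24 and 19 at E17.5, and 10, 11 and 13 in EPDCs. Its share of summits was 1.09 ± 0.173 per 10000 at E11.5, 1.88 ± 0.117 at E17.5 and 0.996 ± 0.023 in EPDCs (SD, n = 3 each).

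The *Fbln2* promoter (start at chr6:91212455, + strand) was at 84.3, 85.1 and 87.3 at E11.5, 73.0, 78.5 and 79.5 at E17.5, and 80.2, 74.3 and 81.1 in EPDCs. It was lower at E17.5, with a difference of −8.56 points (exact permutation p = 0.1). The element at −1.4 kb was between 94.2 and 97.3 in all 9 libraries and was not called. At −11.5 kb the summit was at 72.1, 71.7 and 74.8 at E11.5, absent from the 3 E17.5 libraries, and at 70.2, 67.0 and 69.7 in EPDCs. The element at −9.7 kb, close by, was at 73.3, 51.0 and 60.5 at E11.5, 80.4, 87.9 and 84.8 at E17.5, and without a summit in EPDCs. Its EPDC difference was −73.0 points, the largest of any named element, and −1.83 points without a call when overlapping intervals were read. Of the 31 *Fbln2* elements, 9 (29.0%) were higher and 8 (25.8%) lower at E17.5, against 11.0% and 27.4% of all elements, and 0 were higher and 4 (12.9%) lower in EPDCs, against 9.36% and 8.09%.

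**Figure D2:**
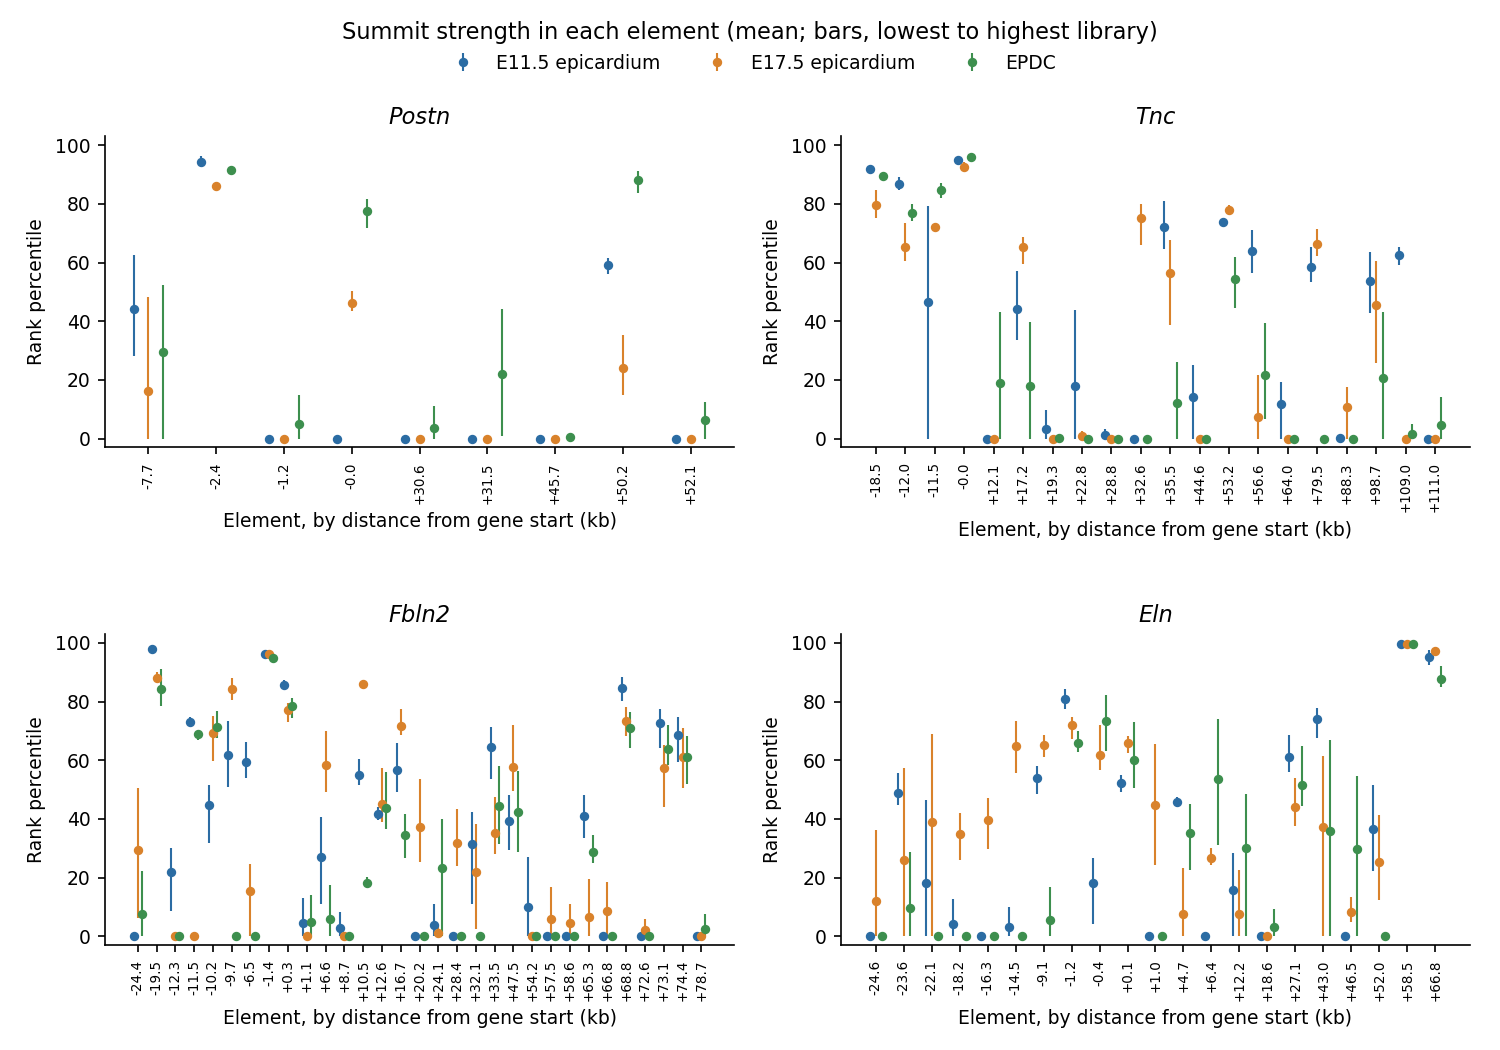
Rank percentile (y axis, 0 where no summit was called) of every element of *Postn*, *Tnc*, *Fbln2* and *Eln*, in order of the distance of its summit from the gene start in kb (x axis, not to scale), with points for the mean of 3 libraries and bars from the lowest to the highest library of each group. EPDC points stand highest at the *Postn* start and at +50.2 kb, and the E17.5 points alone stand above 0 at *Tnc* +32.6 kb.

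Over all 172 elements, 33 (19.2%) were higher and 36 (20.9%) were lower at E17.5 than at E11.5, where 11.0% of all 184764 elements were higher and 27.4% were lower. Among equal numbers of top summits from each library, 39 were higher and 28 lower, against 14.3% and 16.6% of all elements. The share of higher calls among the called elements of the 10 genes was thus 47.8% by the first ranking and 58.2% by the second. The median stage difference was 0.0 points over the 172 elements and −2.02 over all elements. *Eln* and *Fbln2* held 9 each of the 33 elements that were higher. Of the 172 elements, 14 (8.14%) had a summit in the 3 E17.5 libraries and none at E11.5, against 4.39% of all elements, and 8 (4.65%) had the reverse, against 10.4%.

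In EPDCs, 17 elements (9.88%) were higher and 15 (8.72%) were lower than in the 6 epicardial libraries, close to the 9.36% and 8.09% of all elements. The median difference was −1.31 points over the 172 elements and −1.75 over all. Of the 10 genes, 7 held calls in both directions, with 3 each of the 17 higher elements at *Postn*, *Vcan* and *Sparc*, and with 4 of the 15 lower ones at *Fbln2* and 3 each at *Tnc* and *Eln*. Without E12.5 sample 1, where fewer libraries have to stand apart, 29 elements (16.9%) were higher in EPDCs, as were 16.9% of all elements. There were 3 elements with a summit in all EPDC libraries and in no epicardial library, at the *Postn*, *Vcan* and *Dcn* genes (1.74%, against 3.23% of all elements), and 4 with the reverse (2.33%, against 2.12%). Of the 12 epicardial marker promoters, 4 were called lower in EPDCs by rank percentile, where 6.68% of all promoters were. Any relation of these markers to the element calls was not tested.

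**Figure D3:**
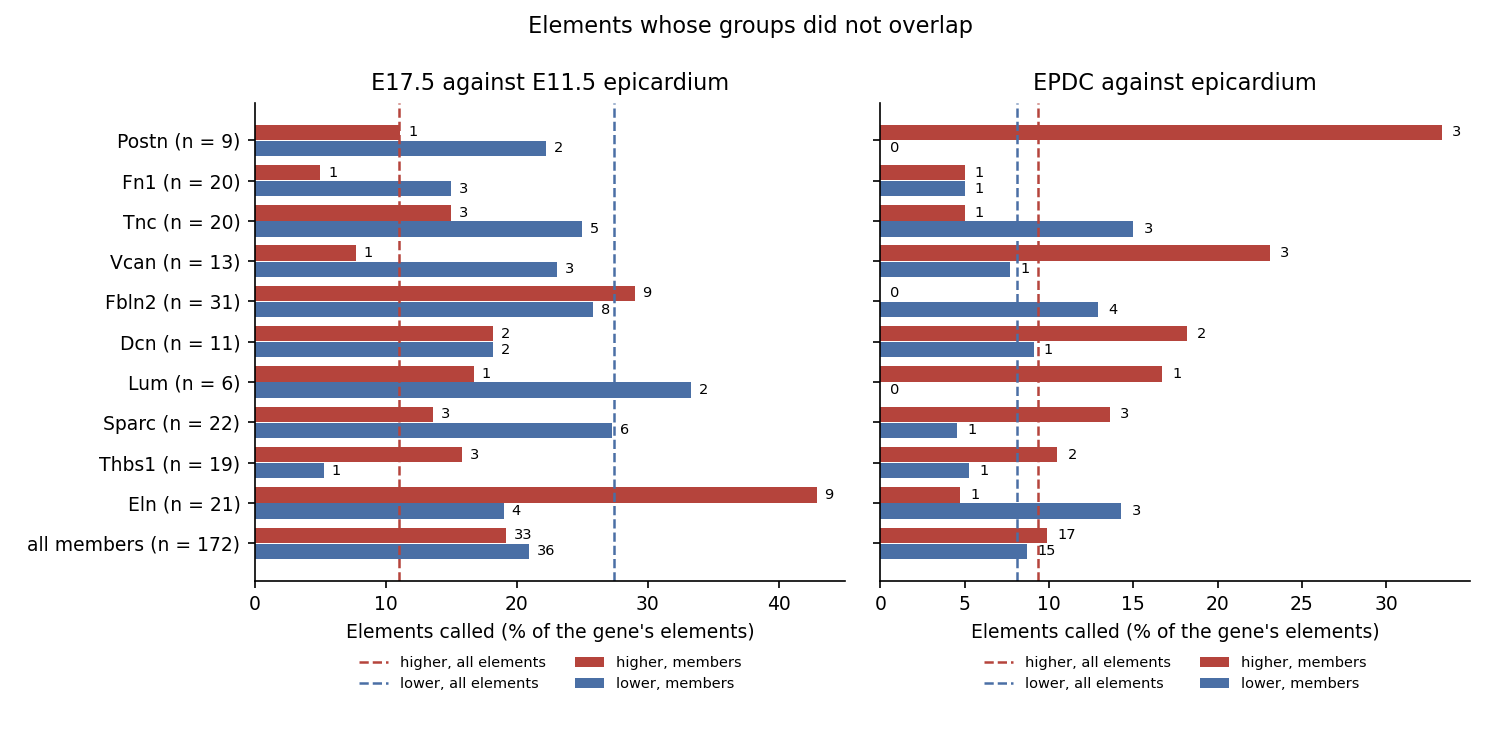
Percentage of the elements of each gene (x axis; number of elements beside the gene) that were higher (red) or lower (blue) without overlap between groups, with the counts at the bars and dashed lines for the shares of all 184764 elements. At left E17.5 is set against E11.5 epicardium, where *Eln* and *Fbln2* hold 9 higher elements each, and at right EPDCs are set against epicardium, where *Postn* has 3 higher and 0 lower.

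The windows of the 10 genes took a larger share of the summits at E17.5. They held 100, 110 and 110 summits at E11.5, 110, 136 and 111 at E17.5, and 97, 97 and 127 in EPDCs. Per 10000 summits this was 8.02 ± 0.337 at E11.5, 10.9 ± 0.657 at E17.5 and 9.39 ± 0.325 in EPDCs (SD, n = 3 each). The stages did not overlap, with a difference of 2.83 per 10000 (exact permutation p = 0.1), and it was 2.32 among equal numbers of top summits. By gene, the share was higher at E17.5 without overlap for 6 of the 10 genes and lower for 0, where 24.7% of the windows of all protein-coding genes were higher and 12.4% lower. Among equal numbers of top summits it was higher for *Fbln2*, *Sparc*, *Thbs1* and *Eln*, 4 of the 10, against 14.7% of all windows. In EPDCs the share was higher for *Postn* and *Vcan* and lower for *Tnc*, where 5.32% and 7.37% of all windows were called. Among equal numbers of top summits only the *Tnc* call was kept of these 3, and 4.92% and 5.70% of all windows were called.

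**Figure D4:**
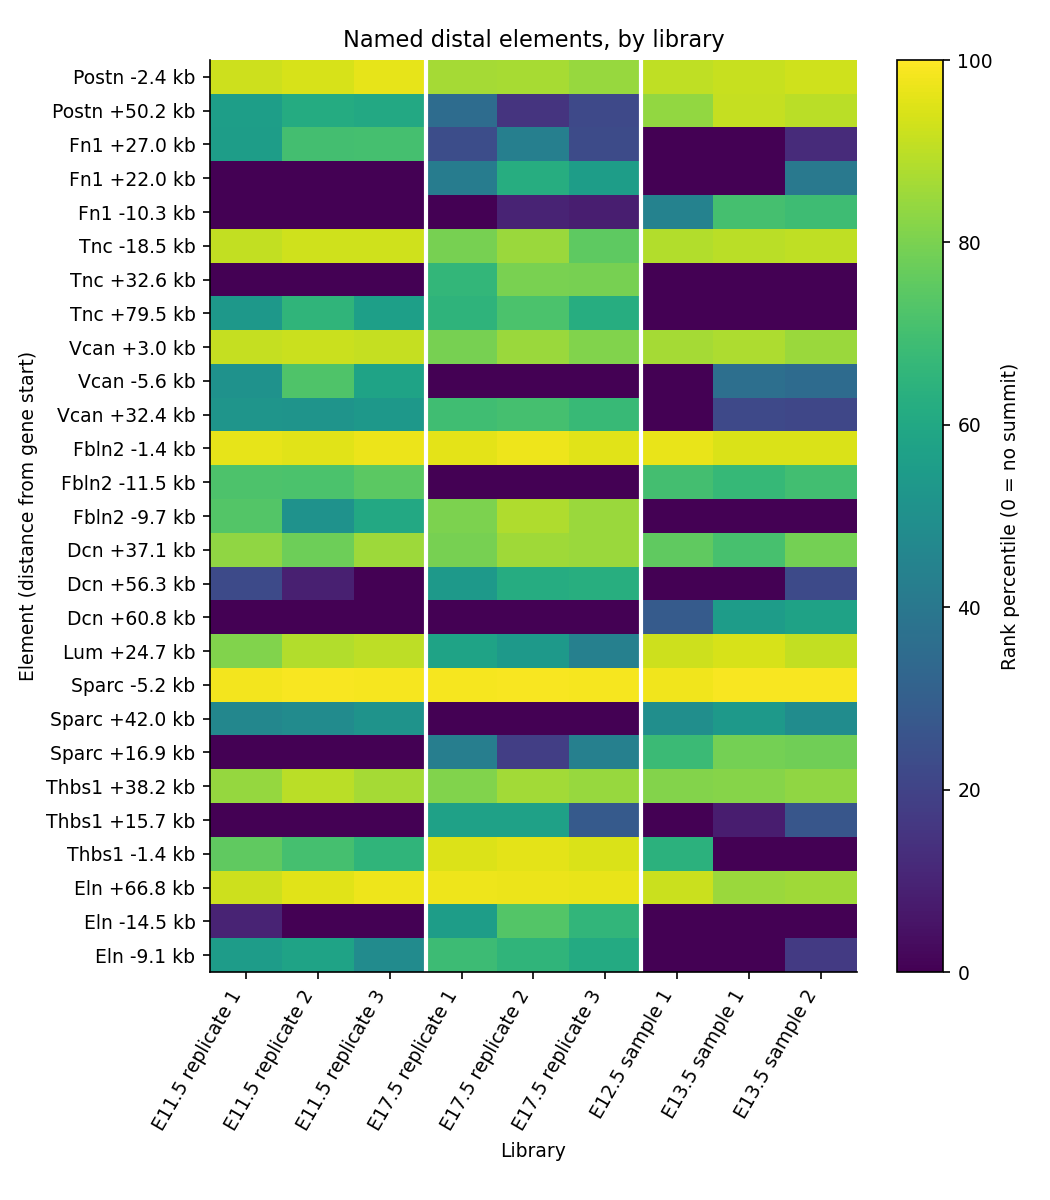
Rank percentile, from 0 (dark, no summit) to 100 (yellow), of the named distal elements (rows, by distance from the gene start) in each of the 9 libraries (columns), with white lines between E11.5 epicardium, E17.5 epicardium and EPDCs. *Sparc* −5.2 kb and *Fbln2* −1.4 kb stay high in all 9 libraries, whereas *Tnc* +32.6 kb is open in the E17.5 columns and *Dcn* +60.8 kb in the EPDC columns.

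Of the 172 elements, 52 (30.2%) had a summit in all 9 libraries, against 24.7% of all elements, and 27 (15.7%) had one in a single library, against 16.6%. The 13 promoter elements included 9 with a summit in every library, and the 64 elements inside the genes included 13.

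The letters of 7 motifs were searched in the whole width of each element on both strands. The AP-1 motif TGANTCA was in 41 of the 172 elements (23.8%, against 22.8% of all elements), the TEAD motif GGAATG in 57 (33.1% against 33.1%) and the E-box CAGCTG in 55 (32.0% against 33.5%). The letters AGATAA, which proteins of the GATA family bind, were in 50 (29.1% against 29.8%), and the RUNX motif TGTGGT was in 62 (36.0% against 29.9%). The T-box motif AGGTGTGA was in 1 element (0.581% against 1.97%) and the CArG box in 4 (2.33% against 2.49%). A base could belong to matches of more than 1 motif. Among the 15 elements lower in EPDCs, 9 held the TEAD letters, where 40.0% of all elements lower in EPDCs did, and 5 held the AP-1 letters, where 37.2% of all such elements did. Among the 33 elements higher at E17.5, 9 held AP-1, where 35.3% of all elements higher at E17.5 did. These are descriptions of letters in the sequence and are not binding sites.

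Other genes of the matrix were read at their promoters from a list of 50, which included further matricellular genes, elastic fibre genes and leucine-rich proteoglycans. At E17.5, 5 were higher and 17 lower than at E11.5, and in EPDCs 4 were higher and 5 lower than in epicardium, where 7.70% and 17.3% of all promoters were called for stage and 4.80% and 6.68% for EPDCs. Among equal numbers of top summits, 8 of the 50 were higher and 12 lower at E17.5, against 16% and 10.3% of all promoters, and on the log2 scale 7 and 13, against 22.6% and 8.29%. In EPDCs, 7 were higher and 4 lower among equal numbers of top summits, against 6.65% and 6.85% of all promoters. By fold enrichment 7 were higher and 2 lower in EPDCs, against 8.75% and 2.97%. The median stage difference over the 50 was −2.43 points and the median EPDC difference 0.534. *Aspn*, the asporin gene of the same proteoglycan family as *Dcn*, had the pattern of *Postn*, with no summit at E11.5, 25.8, 29.5 and 13.9 at E17.5, and 21.3, 64.8 and 76.2 in EPDCs. The E17.5 and EPDC libraries of *Aspn* overlapped, unlike those of *Postn*. *Mfap4* and *Emilin1*, of the elastic fibre, were lowest at E17.5 and highest in EPDCs, with the EPDC call of *Emilin1* lost by fold enrichment and *Mfap4* at 86.2, 85.8 and 88.4 at E11.5, 69.7, 54.8 and 68.2 at E17.5, and 93.7, 96.0 and 95.1 in EPDCs. Elastic fibre genes did not share one order, since *Fbln1* was higher at E17.5 and lower in EPDCs, at 91, 91.9 and 91.7 at E11.5, 92.2, 92.8 and 92.8 at E17.5, and 85.5, 81.1 and 83.0 in EPDCs, and *Lox*, which crosslinks collagen and elastin, was higher at E17.5, a call lost by fold enrichment. *Fmod*, the fibromodulin gene, was lower at E17.5 and lower again in EPDCs, a call of the EPDCs that was lost by fold enrichment, at 97.3, 98.5 and 98.7, 93.6, 96.7 and 94.0, and 87.1, 86.6 and 89.9 in the same order.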

How the data were processed

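ATAC-seq peak lists of 9 libraries on mm10 were used, with the technical replicates of E13.5 sample 2 in 1 list. The authors' methods state that duplicate, multimapped, blacklisted and mitochondrial reads were removed, although the EPDC lists still hold 25 to 47 mitochondrial summits, which were not used. The authors ran MACS2 2.2.9.1 on fragment pairs, with 0.01 as the largest q-value and all summits of an interval retained. The deposited lists hold −log10 p-values and q-values and a fold enrichment (a ratio to local background), which grow with depth and are not normalized between libraries. Percentile ranks within a library were therefore computed. Fragments at a summit were solved from the deposited fold and −log10 p, to within 0.01, for 79.2 to 94.7% of the summits of a library, and the strongest summits were left unsolved.

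Summits were reduced to elements reaching 250 bp to either side of a summit, gene starts came from GENCODE M21, and groups were compared by two-sided exact permutation tests over libraries. For each gene the text names the promoter, the strongest distal element and the distal element with the largest called difference in each comparison. The 10 genes, the gene lists and the motifs were chosen with earlier results of these data known. Calculations used Python 3.11.15, numpy 2.4.6, pandas 2.3.3 and scipy 1.17.1, and figures matplotlib 3.10.9, and the calls were tested on simulated data. Alternatives were a stricter q-value, equal numbers of top summits, fold enrichment, log2 scores with a pseudocount of 1, interval overlap, a 10 kb flank, any transcript start, a replicate block and leaving out each library. Whether libraries of 1 group came from separate litters is not given in the sources used here, so p-values measure the spread between these samples. Epicardium at E13.5 was not analysed here.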

Additional observations from a re-analysis of the deposited data

How the results depend on the processing

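Among the counts for EPDCs, elements higher than in epicardium numbered 10 with a 10 kb flank, whose smaller windows hold fewer elements. They numbered 17 to 29 when single libraries were left out, with 29 reached without E12.5 sample 1. Promoters higher in EPDCs numbered 4 among equal numbers of top summits (6.65% of all promoters), 4 on the log2 scale (7.42%), 1 with the start of any transcript (4.97%) and 2 to 5 when single libraries were left out, and promoters lower in EPDCs numbered 0 by fold enrichment (2.97%). Promoters higher at E17.5 numbered 1 by fold enrichment (8.45%) and 1 by interval overlap (7.63%). The cause of these changes was not tested. Among called differences, the stage difference turned for the *Tnc* promoter on the log2 scale (0.0198). By interval overlap it turned for the promoters of *Thbs1* (2.68) and *Eln* (−7.12), and the EPDC difference of *Thbs1* −1.4 kb became 0.827. The uncalled stage differences of the *Vcan* and *Fn1* promoters turned on the log2 scale (0.0577 and 0.216), and that of *Vcan* among equal numbers of top summits (1.04). The difference between EPDCs and epicardium in the share of summits, −0.0484 per 10000, ranged from −0.394 to 0.382 when single libraries were left out (0.136 without E13.5 sample 1). Settings for these shares were chosen after seeing the data. With the replicate number as a block, 36 elements were higher and 44 lower at E17.5 (13.3% and 31.6% of all elements), and 2 and 5 promoters (11.6% and 23.7% of all promoters). Deviations of libraries with the same number correlated at 0.0332, 0.0907 and −0.0525, so the numbers were not taken as pairs. Only 3 libraries per group and called summits alone limit what can be seen, and weak summits near the lowest fragment counts can be missed in shallower libraries.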
